A study of Rattus norvegicus with 6 samples.

Results

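The genes described here build the extracellular matrix and the basement membrane: collagens, laminins, nidogens, matrix glycoproteins and proteoglycans, and the enzymes and inhibitors that cross-link or degrade them. They were taken from a list of 47 genes by symbol, and 41 of them had at least 1 array probe annotated with that single symbol, 60 probes among 33249 tested. Col3a1, Col4a2, Col6a3, Lama2, Lamb1 and Thbs1 had no such probe and were not analysed here. Brainstem cells grown in culture came from 2 inbred rat strains: SHR, the spontaneously hypertensive rat, and WKY, the Wistar Kyoto rat, which is normotensive. Expression was measured with single-colour CodeLink rat bioarrays. Each strain had 3 arrays, and each array carried total RNA of cells pooled from 3 dishes, with no treatment named in the labels. The labels give no age of the animals, no days in culture and no cell type beyond cultured brainstem cells. They do not say if pools of the same strain stem from separate animals, and p-values therefore reflect only the spread between pools, which may be technical.

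The matrix between cells is laid down as fibrillar collagens, held together by fibronectin, elastic fibres and proteoglycans, while the basement membrane is a thin sheet made of laminin trimers, type IV collagen, nidogen and perlecan. In the brain, fibrillar collagen is found mainly in the meninges and around larger vessels, and basement membranes lie under endothelial cells and under the astrocyte end-feet at the surface of the brain and its vessels. Lysyl oxidases cross-link collagen and elastin, matrix metalloproteinases cut matrix proteins, and the TIMP proteins inhibit them. In RNA of mixed cultures, fewer cells of a type and less RNA per cell cannot be told apart.

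Most matrix genes stood higher in SHR, and none passed the test over all probes. Differences are log2 intensity in SHR minus WKY. Where a gene had several probes, its brightest probe (highest mean over the 6 arrays) stands for it unless another is named. The gene list was chosen with earlier results of these data known, so its shares are a description and not independent support. Of the 41 genes, 32 were above 0 (78.0%, against 49.8% of the 12082 genes with a tested probe). The median difference was 0.23, against -0.0012 over all those genes. Past an adjusted p of 0.05 in limma there were 0 of the 60 probes, and 0 of all probes (0.0%), where 7.65% of all probes had an unadjusted p under 0.05. At an unadjusted p under 0.05 there were 10 genes higher in SHR (24.4%, against 3.43% of all genes) and 0 lower (against 3.41%). Counted by probe, 15 of 60 were higher (25%, against 3.65% of all probes) and 1 was lower (against 4.01%). In 11 of the 41 genes every SHR value lay above every WKY value (26.8%, against 6.77% of all genes), and in 1 gene, Sparc, every SHR value lay below (against 7.4%). Probes of matrix genes were bright on these arrays. Among the 4504 genes at least as bright as the median matrix gene, 1.78% were higher in SHR at an unadjusted p under 0.05, 48.6% were above 0 and 5.88% had all SHR values above all WKY values. Matrix genes dimmer than that median, Col26a1 and Lama1 among them, lie below this cut. These shares are therefore not a like comparison for all 41 genes.

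**Figure D1:**
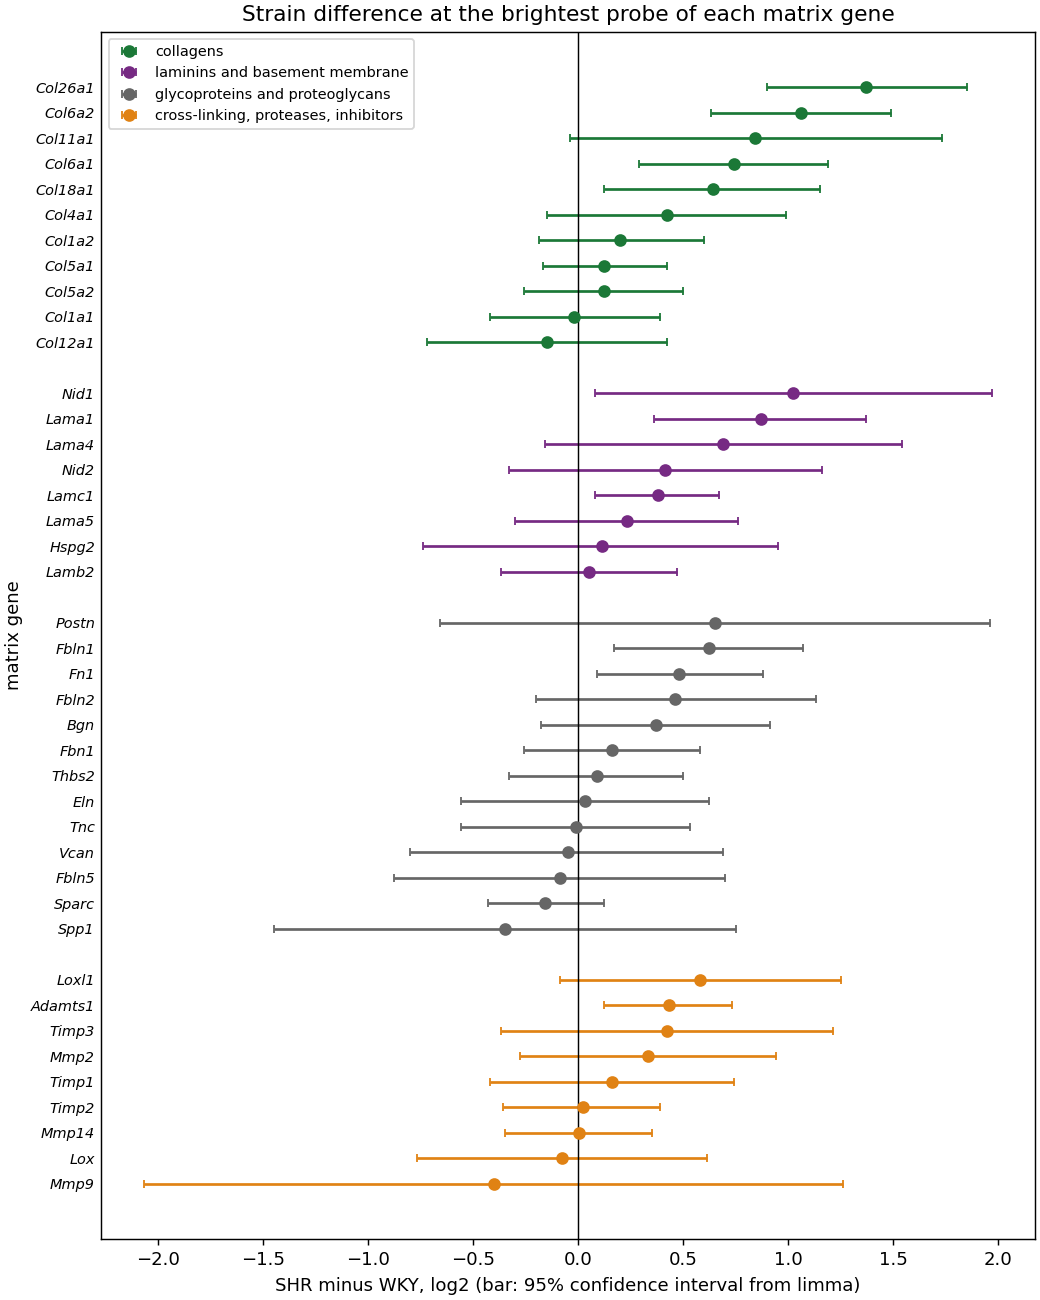
Difference between strains (SHR minus WKY, log2, horizontal axis) for 41 matrix genes in 4 classes (vertical axis), with the 95% confidence interval from limma as a bar. All 8 laminin and basement membrane genes lie to the right of 0, from 0.05 to 1.02, while Col1a1, Tnc and Mmp14 lie at 0 within 0.02.

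The 11 collagens measured had a median difference of 0.42, with 9 above 0 and 4 at an unadjusted p under 0.05, all higher in SHR. Those 4 are Col26a1, Col6a2, Col6a1 and Col18a1, none of them a fibrillar collagen.

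Col26a1, a collagen with an EMI domain, had log2 values of 10.64, 10.79 and 11.27 in SHR against 9.69, 9.45 and 9.44 in WKY. The lowest SHR array was well above the highest WKY array. The difference was 1.37 ± 0.20 (SE), a 2.59-fold higher signal in SHR (adjusted p = 0.244 in limma). Its adjusted p was 0.048 once limma's prior was made robust and dependent on intensity, and was larger in every other setting that gave one. The second probe of Col26a1 was dim, with 7.92, 7.01 and 7.08 in SHR and 6.0 and 6.53 in WKY. The WKY 3 entry of that probe was not above 0 and was left out of the fit. This probe also had no overlap, with a difference of 1.07 ± 0.35.

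Collagen VI forms beaded microfibrils next to basement membranes, and 2 of its chains were measured. Col6a2 had 11.37, 10.89 and 11.01 in SHR and 9.83, 10.18 and 10.08 in WKY. The difference of 1.06 ± 0.18 is a 2.08-fold higher signal (adjusted p = 0.297 in limma). Again no WKY array reached an SHR array. Col6a1 had 12.01, 12.00 and 11.95 in SHR and 10.95, 11.60 and 11.20 in WKY, a difference of 0.74 ± 0.19 (adjusted p = 0.527). Its second probe gave 12.08, 12.32 and 12.25 in SHR and 10.13, 11.77 and 10.88 in WKY, a difference of 1.29 ± 0.40. At both Col6a1 probes the SHR arrays lay close together, with an SD of 0.03 and 0.13, and the WKY arrays were spread, with an SD of 0.33 and 0.82. Col6a1 and Col6a2 are direct neighbours on rat chromosome 20, with 0 protein-coding genes between them in the RefSeq gene table of assembly GRCr8.

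Col18a1, the basement membrane collagen whose end fragment is endostatin, had 9.41, 9.88 and 9.95 in SHR and 8.84, 9.38 and 9.11 in WKY. The gap between the strains was narrow, since SHR 1 was only just above WKY 2, and the difference was 0.64 ± 0.21 (adjusted p = 0.582 in limma). Col4a1, a chain of the type IV collagen network, differed by 0.42 ± 0.24 and by 0.42 ± 0.20 at its 2 probes. At the dimmer of them the SHR arrays (9.79, 9.89 and 10.29) lay above the WKY arrays (9.65, 9.30 and 9.76), and at the brighter one the strains overlapped.

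Fibrillar collagens of the list showed smaller differences. The 5 of 6 listed that were measured had a median of 0.12, with 0 at an unadjusted p under 0.05 in limma. Outside the list, the fibrillar collagens Col2a1 (-0.43) and Col5a3 (-0.41) were lower in SHR at an unadjusted p under 0.05 in limma. Col11a2 (-0.07) and Col27a1 (0.05), also outside it, were near 0. Non-fibrillar collagens outside the list went both ways. Col7a1 (0.51) and Col8a2 (0.25) were above 0, and Col8a1 (-0.52), Col16a1 (-0.36) and Col15a1 (-0.08) were below. Col1a1, which with Col1a2 makes type I collagen, had 13.20, 13.64 and 13.48 in SHR and 13.62, 13.47 and 13.28 in WKY. The strains overlapped fully, and the difference of -0.02 had a 95% confidence interval from -0.42 to 0.39. Its second probe gave 0.04 ± 0.24. Col1a2 differed by 0.20 (95% confidence interval -0.19 to 0.60), Col5a1 by 0.12 (-0.17 to 0.42) and Col5a2 by 0.12 (-0.26 to 0.50). Col11a1, a fibrillar chain of minor amount in most tissues, stood apart from these with 13.48, 12.75 and 14.03 in SHR against 13.02, 12.19 and 12.52 in WKY. SHR 2 lay within the WKY range, and the difference of 0.84 had an interval from -0.04 to 1.73. Col12a1, which binds the surface of collagen fibrils, differed by -0.15 ± 0.24.

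**Figure D2:**
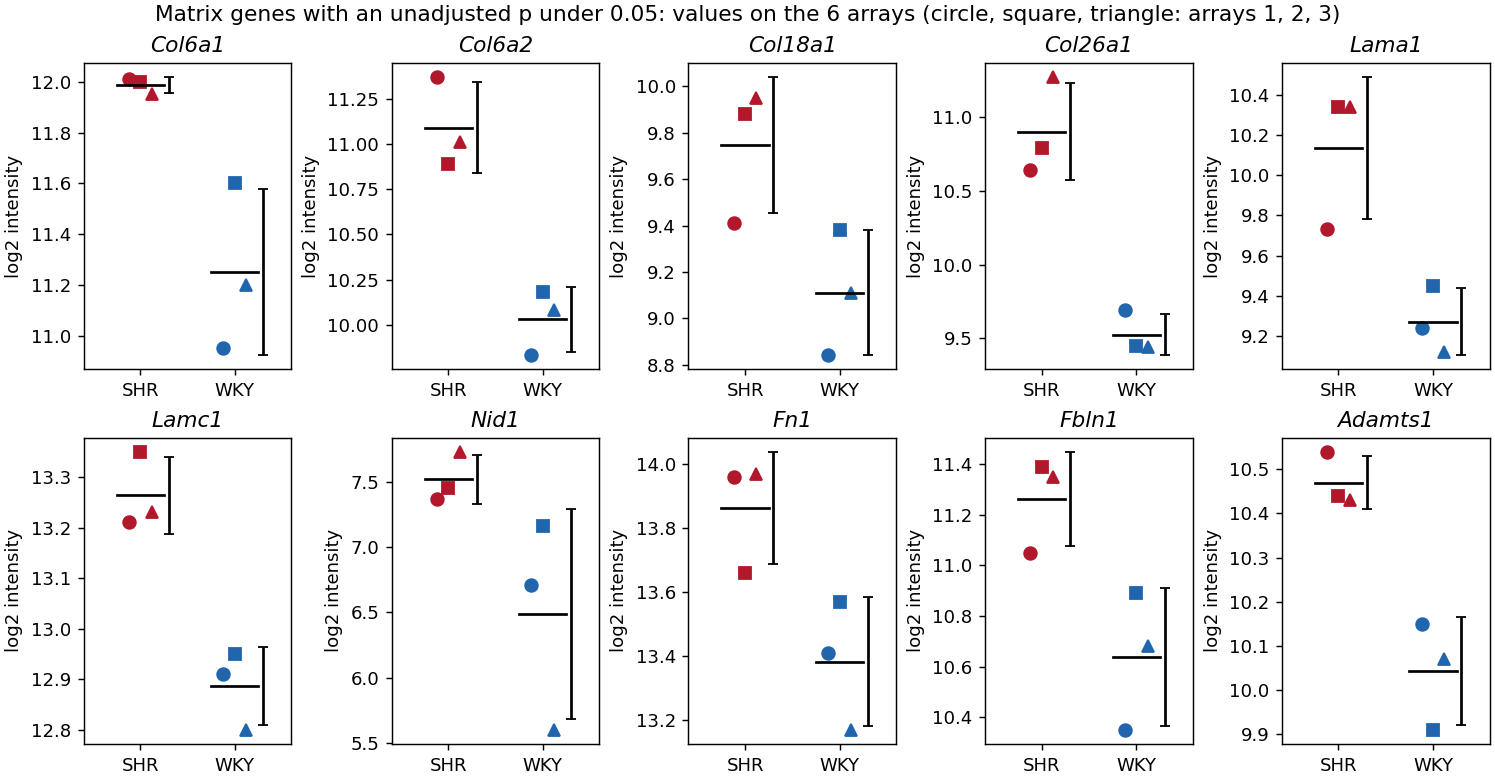
Log2 intensity (vertical axes, each with its own range) of the 10 matrix genes with an unadjusted p under 0.05, on the 3 SHR and 3 WKY arrays, with the mean as a line and the SD as a bar. In each of the 10 genes all SHR arrays lie above all WKY arrays, with the widest gap in Col26a1 and the widest spread in WKY for Nid1.

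To show the DNA in front of leading genes, the 250 bases before the start of Col26a1, Lama1 and Col6a1 are printed from RefSeq (build GRCr8, a BN rat, so not the sequence of SHR or WKY). Col6a1 was added after its values were seen, as the measured partner of Col6a2. Of the 41 genes, 27 were found in the RefSeq promoter table, with 28 entries. Col6a2, which had a smaller unadjusted p than Lama1 and Col6a1, was not among them. Capitals mark matches to motifs searched on both strands: the GC box (GGGCGG), the AP-1 site (TGANTCA), the TATA box (TATAAA), the TEAD site (GGAATG) and the CCAAT box.
Col26a1, chr12:25429146-25429395, + strand: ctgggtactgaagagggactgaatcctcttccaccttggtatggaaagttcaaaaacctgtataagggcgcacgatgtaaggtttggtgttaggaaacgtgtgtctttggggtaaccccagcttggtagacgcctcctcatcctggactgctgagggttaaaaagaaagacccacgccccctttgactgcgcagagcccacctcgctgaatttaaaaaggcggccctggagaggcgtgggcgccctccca
Lama1, chr9:115139298-115139547, + strand: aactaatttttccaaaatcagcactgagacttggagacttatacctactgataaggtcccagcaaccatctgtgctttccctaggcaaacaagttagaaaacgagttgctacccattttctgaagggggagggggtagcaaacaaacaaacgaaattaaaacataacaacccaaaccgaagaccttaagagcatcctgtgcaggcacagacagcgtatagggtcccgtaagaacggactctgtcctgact
Col6a1, chr20:11905440-11905689, + strand: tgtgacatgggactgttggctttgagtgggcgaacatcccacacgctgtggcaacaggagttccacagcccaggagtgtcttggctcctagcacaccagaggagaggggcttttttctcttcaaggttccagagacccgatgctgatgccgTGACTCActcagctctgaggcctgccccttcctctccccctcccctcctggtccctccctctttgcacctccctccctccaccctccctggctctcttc

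The Col6a1 window held 1 AP-1 match, a sequence found in 6.34% of the 33469 promoters of the table, and no other of the 28 windows of matrix genes held it. The windows of Col26a1 and Lama1 held none of the 5 motifs. Of all 28 windows, 17 held a GC box (60.7%, against 30.5% of all promoters and 38.9% of the 21842 of protein-coding genes), 7 held CCAAT (25%, against 34.0%), 6 held TATAAA (21.4%, against 12.9%) and 5 held GGAATG (17.9%, against 12.1%). These matches describe letters only and are no binding sites.

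All 8 laminin and basement membrane genes measured were above 0, with a median of 0.40, and 3 of them (Lama1, Lamc1 and Nid1) had an unadjusted p under 0.05. Lama1, the alpha chain of laminin-111, which is typical of meningeal and embryonic basement membranes, had 9.73, 10.34 and 10.34 in SHR and 9.24, 9.45 and 9.12 in WKY. The strains did not overlap, and SHR 1 was the lowest SHR array. The difference was 0.87 ± 0.21, a 1.82-fold higher signal (adjusted p = 0.506 in limma). Lamc1, the gamma chain shared by most laminin trimers, had 13.21, 13.35 and 13.23 in SHR and 12.91, 12.95 and 12.80 in WKY. This was a small difference with a small spread, 0.38 ± 0.12, or 1.30-fold (adjusted p = 0.575).

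Nid1, the nidogen that links laminin to type IV collagen, had 7.37, 7.45 and 7.73 in SHR and 6.71, 7.16 and 5.60 in WKY. It was dim, among the lowest 25% of probes by mean log2, and the size of its difference, 1.02 ± 0.39 (adjusted p = 0.627 in limma), rested on WKY 3: it was 0.58 without that array and 0.70 with an offset of 50 intensity units before log2. Nid2, its homologue, differed by 0.41 ± 0.31 and 0.51 ± 0.30 at its 2 probes. Both Nid2 probes were highest in SHR 2 and had WKY 2 above SHR 1.

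Lama4, the alpha chain of vascular and mesenchymal laminins, had 10.99, 11.58 and 10.93 in SHR and 9.74, 10.86 and 10.84 in WKY. The SHR arrays lay above the WKY arrays by a narrow margin, with WKY 1 far below the other arrays. The difference was 0.69 ± 0.35 at this probe and 0.71 ± 0.25 at a second one, and 0.24 ± 0.37 at the third, dim probe where the strains overlapped. The chains Lama5 (0.23 ± 0.22) and Lamb2 (0.05 ± 0.17, and 0.53 ± 0.27 at its other probe) overlapped between strains. So did Hspg2, the perlecan gene (0.11 ± 0.35, and 0.48 ± 0.38 at its other, dim probe). For Lamb2, whose chain lies at synapses and vessels, the 95% confidence interval at the brightest probe ran from -0.37 to 0.47.

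The 13 glycoproteins and proteoglycans measured had a median of 0.09, with 8 above 0 and 5 below. This median was 0.03 without WKY 3 and between 0.09 and 0.20 without any other single array. Fbln1 and Fn1 were the members of this class with an unadjusted p under 0.05 at the brightest probe. Fbln1, a fibulin of basement membranes and elastic fibres, had 11.05, 11.39 and 11.35 in SHR and 10.35, 10.89 and 10.68 in WKY. The strains were separated, and the difference was 0.62 ± 0.19 (adjusted p = 0.563 in limma).

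The probes of Fn1, the fibronectin gene, did not agree in direction. The brightest gave 13.96, 13.66 and 13.97 in SHR and 13.41, 13.57 and 13.17 in WKY, a difference of 0.48 ± 0.16 (adjusted p = 0.585 in limma). The second gave 11.00, 10.41 and 10.96 in SHR and 10.18, 9.85 and 9.78 in WKY, a difference of 0.85 ± 0.21. Neither overlapped between strains, and both were higher in SHR. The third probe was dim and went the other way, with 5.39, 6.52 and 5.97 in SHR and 6.75, 7.39 and 6.77 in WKY, a difference of -1.01 ± 0.33. It too had no overlap and was the 1 matrix probe lower in SHR at an unadjusted p under 0.05. The mean of the 3 probes differed by 0.11.

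**Figure D3:**
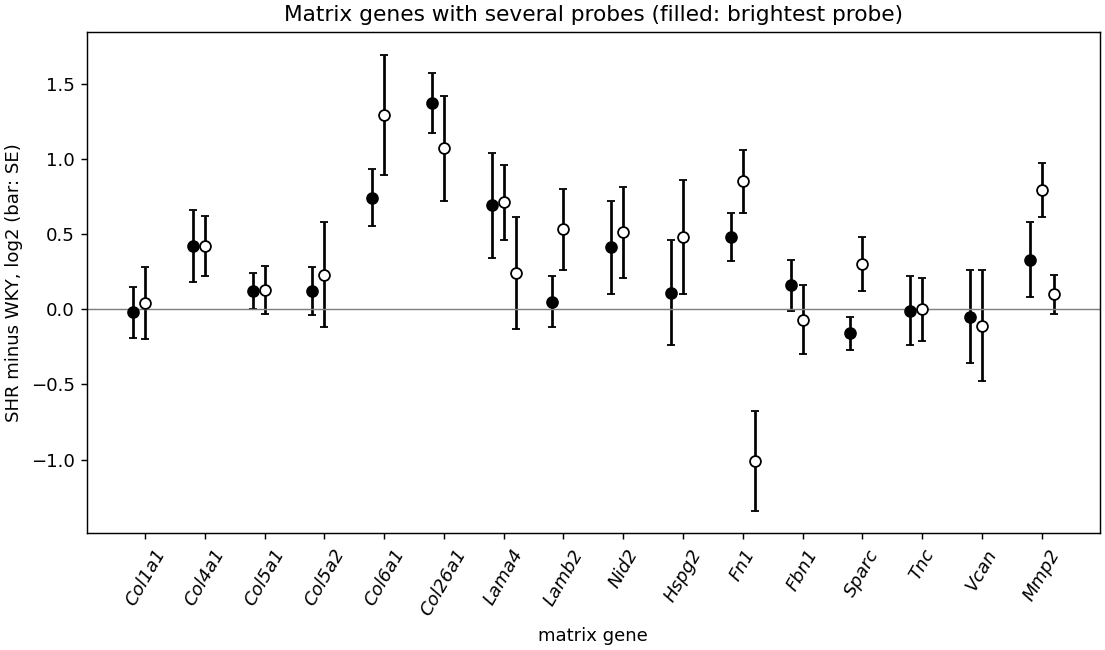
Difference between strains (SHR minus WKY, log2, vertical axis) with its SE at each probe of the 16 matrix genes that had several (horizontal axis), the brightest probe filled. Probes had 1 sign in 12 genes and both signs in Col1a1, Fbn1, Fn1 and Sparc, with the widest disagreement in Fn1, from -1.01 to 0.85.

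Sparc, a collagen-binding glycoprotein, was the 1 gene with all SHR arrays below all WKY arrays at its brightest probe, with 15.14, 15.10 and 15.17 in SHR and 15.34, 15.28 and 15.26 in WKY. The difference there was small, -0.16 ± 0.11, and the other probe gave 0.30 ± 0.18 with overlap. Other bright probes, those of Aif1 and C1qa among them, also lay between 15.1 and 15.3 on every array. Saturation of the signal at this level was not tested. Fbln2 differed by 0.46 ± 0.28 and Bgn, the proteoglycan biglycan, by 0.37 ± 0.23, both with overlap. Near 0 were the elastic fibre genes Eln (0.03 ± 0.25), Fbn1 (0.16 ± 0.17, and -0.07 ± 0.23 at its other probe) and Fbln5 (-0.09 ± 0.33). Also near 0 were Tnc (-0.01 ± 0.23), Thbs2 (0.09 ± 0.17) and the proteoglycan versican, Vcan (-0.05 ± 0.31, and -0.11 ± 0.37 at its other probe).

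Postn and Spp1 varied more within a strain than between strains. Spp1, which encodes osteopontin, had 11.83, 13.45 and 12.01 in SHR and 12.34, 13.10 and 12.91 in WKY. Postn, the periostin gene, had 10.62, 11.97 and 10.53 in SHR and 9.42, 10.94 and 10.82 in WKY. In both genes SHR 2 was the highest of the 6 arrays. The differences of -0.35 ± 0.46 for Spp1 and 0.65 ± 0.54 for Postn were both within that spread.

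The 9 cross-linking enzymes, proteases and inhibitors had a median of 0.16, with 7 above 0. The median was 0.05 without WKY 2, 0.10 without SHR 2, and between 0.17 and 0.24 without any other single array. Adamts1, a protease that cleaves versican and aggrecan, was the 1 gene of this class with an unadjusted p under 0.05 at its brightest probe. It had 10.54, 10.44 and 10.43 in SHR and 10.15, 9.91 and 10.07 in WKY. The strains did not overlap, and the difference was 0.43 ± 0.13, or 1.35-fold (adjusted p = 0.558 in limma).

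Mmp2, the gelatinase that degrades type IV collagen, had 3 probes with unequal differences. The brightest overlapped between strains, with 11.78, 12.55 and 11.93 in SHR and 11.57, 12.09 and 11.61 in WKY (0.33 ± 0.25). The second did not, with 11.20, 11.19 and 11.16 in SHR and 10.12, 10.72 and 10.36 in WKY (0.79 ± 0.18, adjusted p = 0.468 in limma). The third gave 0.10 ± 0.13. All 3 were above 0, so the probes agreed on the sign and not on the size.

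Mmp9, the other gelatinase, had 9.00, 11.41 and 8.81 in SHR and 9.71, 10.34 and 10.38 in WKY. SHR 2 was the highest array and the other SHR arrays the lowest, so that the SD in SHR was 1.45 and the difference of -0.40 ± 0.69 had an interval from -2.07 to 1.26. Mmp14, the membrane-bound activator of Mmp2, differed by 0.0020 (95% confidence interval -0.35 to 0.35). The inhibitors gave 0.16 ± 0.24 for Timp1, 0.02 ± 0.15 for Timp2 and 0.42 ± 0.33 for Timp3, all with overlap. Of the lysyl oxidases, Loxl1 differed by 0.58 ± 0.28 and Lox by -0.08 ± 0.29, also with overlap.

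Other genes of the matrix, taken from a list of 116 of which 98 were measured, showed less of a shift. They had a median of 0.06, with 57 above 0 (58.2%, against 49.8% of all genes). At an unadjusted p under 0.05 in limma, 8 were higher in SHR (8.16%, against 3.43% of all genes) and 5 lower (against 3.41%). None of these genes passed over all probes. Their mean deviation from the mean of all arrays was 0.07, 0.04 and 0.11 in SHR and -0.02, -0.08 and -0.13 in WKY, without overlap. Their summed intensities did overlap, 363940 to 390289 units in SHR and 352258 to 371655 in WKY. By group, the median was 0.28 for 24 proteoglycans and glycoproteins, 0.06 for 20 receptors, 0.03 for 27 processing enzymes and proteases, 0.03 for 10 genes of TGF-beta signalling and -0.07 for 17 further collagens, whose median was 0.11 without normalization between arrays, where the median of all genes was 0.14.

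Among the processing enzymes, Pcolce, which enhances the cleavage of procollagen ends, had 12.44, 12.90 and 12.83 in SHR and 11.59, 12.12 and 11.73 in WKY. There was no overlap, the difference was 0.91 ± 0.20 (adjusted p = 0.465 in limma), and its other probe gave 0.85. Mmp23 also had no overlap, at 1.13 ± 0.26. Mmp8 (-0.79 ± 0.35, with 1 WKY entry left out) and Tgm2 (0.70 ± 0.34, and 0.71 at its other probe) had an unadjusted p above 0.05. Of the further collagens, Col4a3 gave 1.07 ± 0.18 at its brightest probe, which was dim, and -0.52 at its other probe. Col2a1 (-0.43 ± 0.12), Col5a3 (-0.41 ± 0.14) and the dim Col10a1 (-0.65 ± 0.24, with 1 WKY entry left out) stood lower in SHR.

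Of the proteoglycans and glycoproteins, Lum, the small leucine-rich proteoglycan lumican, differed by 1.46 ± 0.58 and the laminin chain Lama3 by 1.22 ± 0.48, both with overlap. The brightest probe of Fbn2 differed by 0.66 ± 0.25 and its other probe by -0.37. Cspg4, the NG2 proteoglycan of oligodendrocyte precursors and pericytes, stood lower in SHR (-0.76 ± 0.28). The receptor genes with the smallest p were Itgb1 (0.41 ± 0.19), the beta chain of most laminin and collagen receptors, Itga8 (0.56 ± 0.26), Sdc2 (0.54 ± 0.27) and Itga2 (0.51 ± 0.29, with 1 SHR entry left out), and 0 receptors had an unadjusted p under 0.05 in limma. In the TGF-beta group, whose ligands induce matrix genes in many cells, Ccn1 (0.53 ± 0.30), Ccn2 (0.47 ± 0.29), Smad7 (-0.29 ± 0.20) and Tgfb3 (-0.17 ± 0.18) had the smallest p, again with 0 under 0.05.

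Markers of meningeal fibroblasts stood higher in SHR by their median, as did the listed collagens and basement membrane genes. The 17 further collagens did not, with a median of -0.07 in the main setting. Of 14 meningeal fibroblast markers measured, 11 were above 0 (78.6%, against 49.8% of all genes), with a median of 0.89. At an unadjusted p under 0.05 in limma, 6 were higher in SHR (42.9%, against 3.43% of all genes) and 0 lower (against 3.41%). Dcn, Lum and Ogn of this list also belong to the other matrix genes above. The summed intensity of the marker probes was 48024 to 55951 units in SHR and 40976 to 45261 in WKY, without overlap, and no marker had an entry at or below 0. The mean deviation of these markers from the mean of the 6 arrays was -0.03, 0.49 and 0.59 in SHR against -0.34, -0.21 and -0.50 in WKY. For collagens the mean deviation was 0.21, 0.16 and 0.35 in SHR and -0.21, -0.18 and -0.34 in WKY. For laminins and basement membrane genes it was 0.18, 0.31 and 0.22 in SHR and -0.29, -0.01 and -0.40 in WKY. Neither class overlapped between strains. SHR 1 had the lowest marker value in SHR and was also the lowest SHR array for laminins and basement membrane genes, while SHR 2 was the lowest for collagens. The part of meningeal cells in the matrix differences was not tested.

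Markers of choroid plexus and ependyma also stood higher (6 of 8 above 0, median 0.85, summed intensity 19197 to 24322 in SHR and 12641 to 13867 in WKY, 1 marker with an entry at or below 0). Endothelial markers had 7 of 9 above 0 (median 0.18) and summed intensities that overlapped, 7023 to 8167 in SHR and 6613 to 7696 in WKY. Mural and smooth muscle markers had 3 of 10 above 0 (median -0.30, 21280 to 24349 in SHR and 20384 to 29025 in WKY). Cspg4 of this list (-0.76), also a gene of oligodendrocyte precursors, belongs to the other matrix genes above as well. Astrocyte markers had 4 of 9 above 0 (median -0.0077, and 0.08 without normalization), microglial markers 2 of 10 (median -0.07), neuronal markers 3 of 6 (median -0.05, and 0.11 without normalization) and oligodendrocyte markers 0 of 12 (median -0.94). Summed intensities of oligodendrocyte markers were 77423 to 156080 in SHR and 145780 to 170862 in WKY. Their part in the matrix differences was not tested either.

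**Figure D4:**
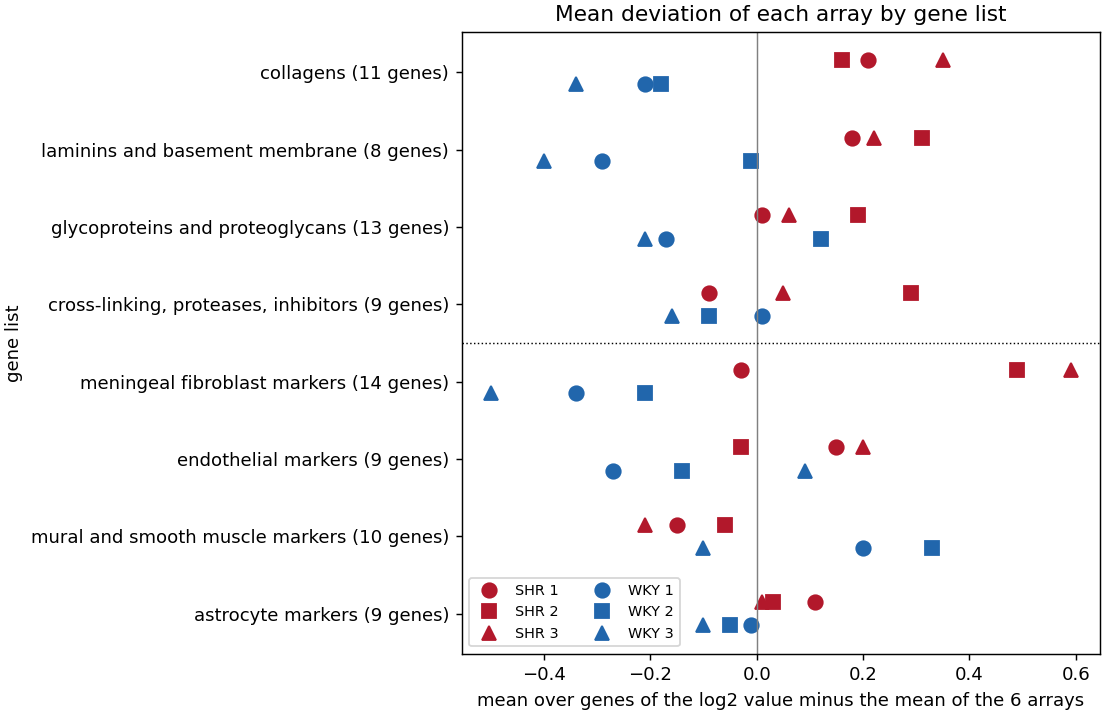
Mean over the genes of a list of the log2 value minus the mean of the 6 arrays (horizontal axis), for each SHR and WKY array, in 4 classes of matrix genes and, under the dotted line, 4 lists of cell type markers (vertical axis). Arrays of the strains do not overlap for collagens, laminins and basement membrane genes and meningeal fibroblast markers. Astrocyte markers are separated by a narrow margin, in a list where 1 gene, Gjb6, differed by 1.28 and 5 of 9 were below 0. Arrays overlap for glycoproteins, enzymes and inhibitors, endothelial markers and mural markers. Of the marker lists not drawn, choroid plexus and ependyma markers do not overlap either (0.19 to 0.56 in SHR, -0.53 to -0.13 in WKY). Microglial markers are separated by a narrow margin, lower in SHR, and oligodendrocyte and neuronal markers overlap.

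Before normalization between arrays the median signal was 432 to 563 intensity units. Correlations across probes after normalization were 0.969 to 0.979 within a strain and 0.964 to 0.977 between strains, so no array stood far apart. Every marker of astrocytes, microglia and neurons that was measured had values above 0 on all arrays, which does not show that the gene was expressed, since the files used here hold no background level for a probe. With 3 arrays a strain, precision is limited throughout.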

How the data were processed

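The authors took background-subtracted spot intensities from CodeLink Expression Analysis software, dropped measurements close to negative controls and quantile normalized the arrays, per the labels' design text. No source used here states the version of that software. The deposited series table of intensity values was used (median 494 in every column, 615 entries per array not above 0), and per-sample tables of unnormalized intensity were an alternative. No entry of the series table was missing, so the drop near negative controls is not visible in it as missing entries. Values not above 0 were set to missing, log2 was taken without offset, and probes missing at most 1 of the 6 values were tested with limma 3.58.1 (R 4.3.3), two-sided, with Benjamini-Hochberg adjustment over 33249 probes. Genes were named through the platform annotation (16753 probes with 1 symbol, 165 with several, 16931 with none). The 3 probes naming a listed gene beside another gene were left out.

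Members and lists were chosen with earlier results of these data known. Values on every array are given for genes with an unadjusted p under 0.05 at the brightest probe, for the leading gene of each class, and for genes whose probes differ in sign with such a p at one of them. Values given on every array for other matrix genes were chosen after they were seen. Up to 4 genes per further matrix list are named by smallest p. The fit was tested on simulated data. Alternatives were 4 normalizations, an offset, 2 probe filters, 2 limma settings, a replicate block, probe means and leaving out each array. Figures were drawn with matplotlib 3.10.9.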

Additional observations from a re-analysis of the deposited data

How the results depend on the processing

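Among the 17 alternative settings, probe means gave no adjusted p. In the others, Col26a1 was the 1 of the 10 genes with an unadjusted p under 0.05 that passed an adjusted p of 0.05. It did so with an intensity trend and robust prior. Over all probes, 0 passed in the main setting, in limma with 2545 at an unadjusted p under 0.05, against 17 with an offset, 5 with probes valid on all 6 arrays, 18 without the dimmest 25% of probes, 28 with trend and robust prior (1 of them a matrix probe) and 10 with array weights. Matrix probes higher in SHR at an unadjusted p under 0.05 numbered 14 to 18 in other settings and 11 to 18 without single arrays. Those lower numbered 0 without the dimmest probes and 0 (without SHR 1 or WKY 2) to 3 (without SHR 2) without single arrays. Genes with all SHR arrays below all WKY arrays numbered 0 with probe means and 1 to 3 (without SHR 1 or SHR 2) without single arrays. Those with all SHR arrays above numbered 13 to 16 without single arrays, where the share of all genes was also higher, 9.1% to 17.3%, as fewer arrays separate more easily.

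Without normalization the median of all genes was 0.14, and medians were 0.38 for the matrix genes, 0.60 for collagens, 0.55 for laminins and basement membrane, 0.26 for glycoproteins and 0.22 for other matrix genes. Without single arrays the median was 0.21 to 0.26 for the matrix genes, 0.28 (without SHR 3) to 0.63 (without SHR 1) for collagens, 0.34 to 0.55 for laminins and basement membrane and 0.03 (without SHR 1) to 0.09 for other matrix genes. With array weights the median was 0.15 for glycoproteins and 0.07 for enzymes and inhibitors. Without normalization, with that higher median of all genes, Col1a1, Col12a1, Fbln5, Tnc, Vcan and Lox were above 0 instead of below. With cyclic loess Tnc was 0.0074 and Mmp14 -0.0029, and no other matrix gene changed sign among the normalizations run. In a fit with a replicate block (replicate number), 0 of all probes passed and 15 matrix probes were higher at an unadjusted p under 0.05. Same-numbered arrays correlated at 0.0011, 0.22 and -0.13 in their deviations from strain means, so the numbers were not taken as pairs. What caused these shifts was not tested.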

Other observations

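Within SHR, matrix genes did not follow one array order. Within WKY they were less even, with WKY 3 the lowest WKY array for 22 of the 41 genes and the highest for 4. Of the 41 genes, SHR 1, SHR 2 and SHR 3 were each the highest of the 6 arrays for 11. The lowest of the 6 arrays was WKY 3 for 18 genes, WKY 1 for 12 and WKY 2 for 3. WKY 2 was the highest WKY array for 19.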
